A study of Homo sapiens with 16 samples.

Results

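Gene expression after 72 h of EWS-FLI1 knockdown was compared with expression at 0 h in the established Ewing sarcoma cell line A673 on 6 of the 16 arrays of a time course. The arrays were chosen by their titles: 2 were labelled 72 h and 4 were labelled 0 h. All came from the clone Asp14, which carries a doxycycline-inducible short hairpin construct directed against EWS-FLI1 and a TR vector, and all cells were grown with Zeocin and Blasticidin to hold these vectors. The 72 h cells had received doxycycline at 1 ug/ml for 72 h, and the 0 h cells were taken when doxycycline was added. A single clone was used, and no array held untreated cells of a later time, so effects of the drug or of longer culture cannot be told apart from those of losing the fusion. The labels number the arrays and say nothing of separate cultures, so p-values cover only the spread among these samples and that spread may be technical.

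EWS-FLI1 joins the activation domain of EWSR1 to the DNA-binding domain of the ETS factor FLI1. The fusion binds GGAA repeats and single ETS sites, activates one set of genes and represses another, and drives the growth of Ewing sarcoma cells. Among the genes known to be repressed by it are many that mesenchymal cells use to build and attach to extracellular matrix, and genes of the cell cycle are known to depend on it, in part through E2F factors.

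The values are log2 expression values per probe set, and the array number limits the precision. For each gene the brightest probe set was used, and 7304 of 11963 genes that reached log2 4 on at least 2 of the 16 arrays were tested. Upper quartiles were 8.08 and 8.10 at 72 h and 8.14 to 8.18 at 0 h, so the groups did not overlap. As a reading of RNA quality, the 3' minus 5' difference of ACTB probe sets was 1.70 and 1.61 at 72 h and ranged from 1.47 to 2.06 at 0 h, so the groups overlapped. Replicates 2 and 3 at 0 h were closer to each other (SD of their difference 0.176 over tested genes) than any other pair at 0 h (0.368 to 0.456). The arrays at 72 h differed with an SD of 0.234.

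Expression differed between 72 h and 0 h in most of the genes tested. With a limma adjusted p under 0.05, 5003 genes passed, 68.5% of those tested. Of these, 2142 were higher at 72 h (29.3%) and 2861 were lower (39.2%), and 1159 (15.9%) and 1292 (17.7%) of all tested genes also passed with a log2 change of 1 or more in those directions. In 4950 genes (67.8%) the call went with arrays that did not overlap. The median change of all genes tested was -0.11. With each array centred on its median the calls divided into 2487 higher and 2537 lower, and the median change was 0.01. With replicates 2 and 3 at 0 h, 18 h and 36 h each counted as 1 sample, 4651 genes passed, and 3858 passed when both arrays at 72 h were averaged as well. A list of genes described below is therefore to be read against 29.3% higher, 39.2% lower and a median of -0.11.

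FLI1, whose 3' part is kept in the fusion, read 7.11 and 6.88 on the log2 scale at 72 h, against 10.17, 10.08, 10.06 and 9.99 at 0 h. Its change was -3.08 ± 0.16 (SE, limma adjusted p = 2.2e-09), and its other probe sets had -3.46 and -2.43. The groups were far apart on every probe set. EWSR1, which is expressed from its intact allele as well, read 8.58 and 8.44 at 72 h and between 9.31 and 9.40 at 0 h, a change of -0.84 ± 0.10 (limma adjusted p = 5.7e-06).

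Of 20 tested genes that EWS-FLI1 is known to activate, 16 fell and 2 rose at 72 h, with a median log2 change of -3.16. CALCB, which encodes a calcitonin gene-related peptide, read 2.68 and 3.53 at 72 h, against 8.82, 8.44, 8.28 and 9.58 at 0 h, a level at least 27.5-fold lower at 72 h. Folds are given as lower bounds, set against log2 4, wherever all probe sets of a gene lay under log2 4 on all arrays of the lower group. ADRB3, the beta-3 adrenergic receptor, read 2.55 and 2.71 at 72 h and between 7.21 and 7.79 at 0 h, a level at least 11.3-fold lower at 72 h. PRKCB, a protein kinase C isoform, fell by 4.90 ± 0.26 (SE), to 5.27 and 5.40 at 72 h, against 9.91 to 10.61 at 0 h. Both genes were separated between the groups by more than 4 log2 units. BCL11B, a zinc finger transcription factor, fell by 4.08 ± 0.19, and STEAP1, a metalloreductase of the cell surface, by 3.40 ± 0.15 (limma adjusted p = 5.8e-10 and 4.5e-10). UTS2, the gene of urotensin, read 5.18 and 5.47 at 72 h and between 9.78 and 11.05 at 0 h, a change of -5.01 ± 0.92 that was -2.52 with its probe sets averaged. The 2 genes that went the other way were UPP1, a uridine phosphorylase, which read 8.86 and 8.77 at 72 h and between 5.16 and 5.85 at 0 h (3.19 ± 0.22), and PLD2, a phospholipase, with a small rise of 0.66 ± 0.18 (limma adjusted p = 0.0060) that was lost under 1 or more of the alternatives given at the end.

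All 8 tested genes that the fusion is known to repress rose, with a median log2 change of 4.23. DKK1, a secreted Wnt inhibitor, read 11.80 and 11.91 at 72 h, against 1.83, 1.81, 1.79 and 2.04 at 0 h, and was at least 232-fold higher. IGFBP3, which binds insulin-like growth factors, read 10.20 and 10.92 at 72 h and between 2.61 and 3.22 at 0 h, and was at least 94.1-fold higher. SPRY1, a feedback inhibitor of receptor tyrosine kinases, rose by 7.49 ± 0.30, and TGFBR2, the type II TGF-beta receptor, by 2.54 ± 0.14 (limma adjusted p = 1.8e-10 and 2.3e-09). For all 4 genes the groups were separated on every array. LOX, the lysyl oxidase that crosslinks collagen, was uneven at 0 h: it read 12.62 and 12.70 at 72 h, against 5.74, 8.95, 8.86 and 8.20 at 0 h, where replicate 1 lay lowest (4.72 ± 0.92, limma adjusted p = 4.4e-04).

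**Figure D1:**
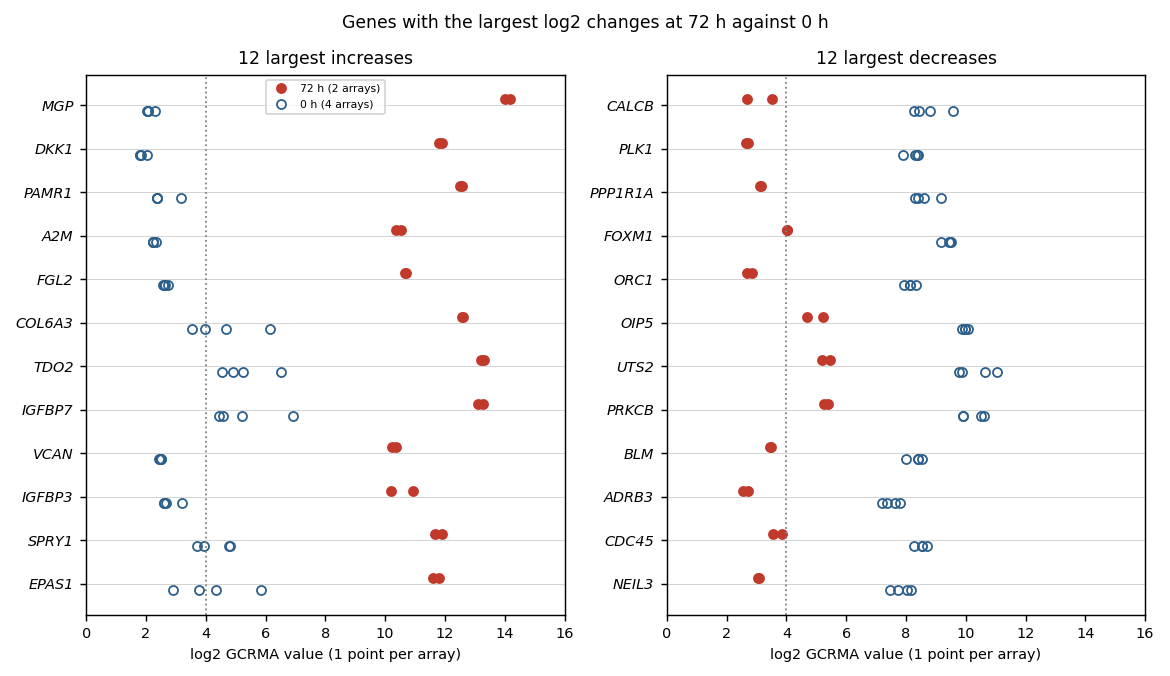
Log2 values per array of the 12 genes with the largest increases (left) and the 12 with the largest decreases (right) at 72 h against 0 h, with filled points for the 2 arrays at 72 h and open points for the 4 arrays at 0 h; the dotted line marks log2 4. The groups do not overlap for any of the 24 genes, as their selection required, and several genes lie under log2 4 on all arrays of 1 group, where only a bound on the fold can be given.

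The genes with the largest changes were chosen by that size, so their values are a description. MGP, an inhibitor of calcification in cartilage and vessel walls, read 14.18 and 14.02 at 72 h, against 2.08, 2.05, 2.06 and 2.29 at 0 h, and was at least 1099.9-fold higher. PAMR1, a secreted protein with a peptidase-like domain, read 12.58 and 12.49 at 72 h and between 2.35 and 3.15 at 0 h, at least 371-fold higher. Both were near the bottom of the scale at 0 h and near its top at 72 h. A2M, the protease inhibitor alpha-2-macroglobulin, read 10.35 and 10.53 at 72 h and between 2.24 and 2.33 at 0 h. FGL2, a fibrinogen-like protein, read 10.70 and 10.68 at 72 h and between 2.58 and 2.74 at 0 h. EPAS1, a hypoxia-inducible transcription factor, rose by 7.48 ± 0.63, and by 4.83 when its probe sets were averaged. Among genes bright in both groups (means of at least log2 6), PTX3, a pentraxin, had the largest rise at 6.43 ± 0.97, with 13.35 and 13.28 at 72 h and 4.93, 7.32, 7.35 and 7.95 at 0 h, where replicate 1 was again lowest. LPL, the lipoprotein lipase, rose by 5.38 ± 0.48, SAT1, which acetylates polyamines, by 5.33 ± 0.41, and RGS4, which dampens G protein signals, by 4.67 ± 0.33. At the other end ADGRG2, an adhesion G protein-coupled receptor, fell by 4.15 ± 0.25, with 6.97 and 6.78 at 72 h against 10.70 to 11.49 at 0 h.

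**Figure D2:**
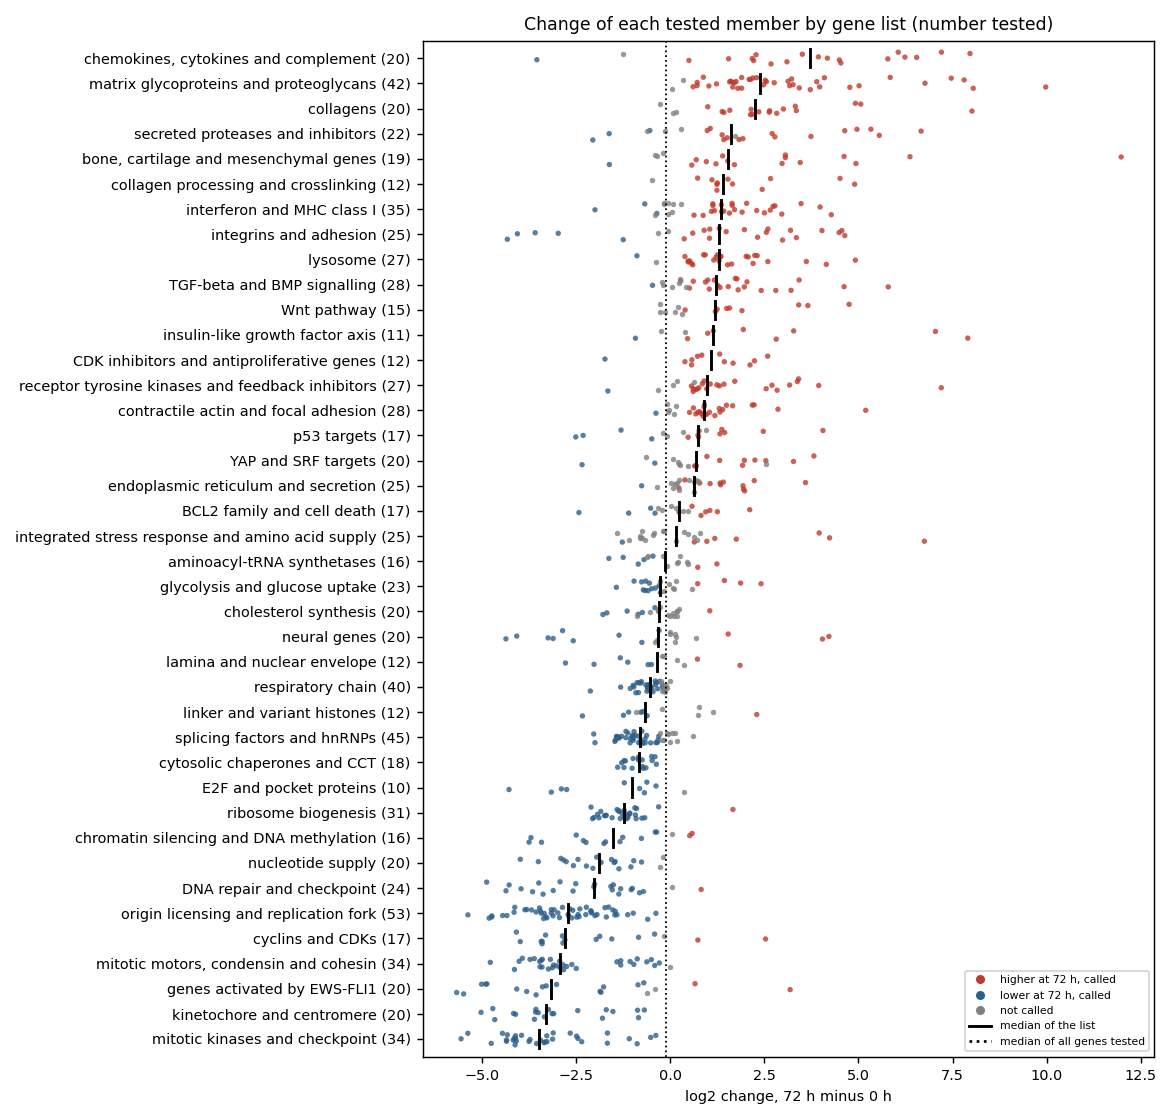
Log2 change at 72 h minus 0 h of every tested member of the gene lists with at least 10 tested members, ordered by list median (black bars), with the number tested in brackets; points are red or blue where the limma adjusted p was under 0.05 and grey otherwise, and the dotted line is the median of all genes tested (-0.11). Lists of mitosis, replication and EWS-FLI1-activated genes sit at the bottom with medians between -3.50 and -2.71. The chemokine, cytokine and complement list and lists of matrix genes sit at the top.

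Genes of the cell cycle machinery were lower at 72 h. RNA came from whole cultures, so fewer cells in a phase and less RNA per cell cannot be told apart. Of 17 tested cyclins, CDKs and their activating phosphatases, 14 fell and 2 rose (median -2.80). CCNA2, the cyclin of S and G2 phase, read 6.62 and 6.76 at 72 h, against 10.13, 10.21, 10.25 and 9.87 at 0 h (-3.43 ± 0.17, limma adjusted p = 1.4e-09). CCNB1 and CCNB2, the mitotic cyclins, fell by 3.40 ± 0.19 and 3.41 ± 0.14. CCNG2, an atypical cyclin linked to arrest, rose by 2.53 ± 0.28, to 10.29 and 10.45 at 72 h, against 7.19 to 8.27 at 0 h. Among 12 tested CDK inhibitors and other genes that restrain division, 11 rose (median 1.08). BTG1, an antiproliferative protein, read 11.81 and 11.75 at 72 h and between 8.86 and 9.48 at 0 h, a rise of 2.59 ± 0.30. FOXO3, a forkhead factor, rose by 1.67 ± 0.17 and MXI1, a MYC antagonist, by 2.24 ± 0.28. The median of this list was 0.65 without the filter on low values. Of 10 tested E2F and pocket protein genes, 9 fell (median -1.02), E2F8, a repressor of the family, by a factor of at least 12.6, with 3.52 and 3.22 at 72 h and 7.12 to 7.92 at 0 h.

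All 53 tested genes of origin licensing and the replication fork fell, with changes from -5.38 to -0.38 and a median of -2.71. ORC1, which marks replication origins, read 2.84 and 2.69 at 72 h, against 7.95, 8.15, 8.32 and 8.15 at 0 h, a level at least 17.7-fold lower at 72 h. CDC45, part of the replicative helicase, was at least 22.7-fold lower, and GINS4, of the same complex, fell by 4.45 ± 0.17 (limma adjusted p = 1.5e-10). PRIM1, the catalytic primase subunit, read 5.65 and 5.70 at 72 h, against 10.43, 10.41, 10.48 and 10.36 at 0 h (-4.74 ± 0.16). RPA2, which coats single-stranded DNA, fell by 2.23 ± 0.10. Of 20 tested genes that supply nucleotides 18 fell (median -1.90). RRM2, the regulated subunit of ribonucleotide reductase, read 9.82 and 9.55 at 72 h, against 13.64 to 13.73 at 0 h (-3.99 ± 0.19). TYMS, the thymidylate synthase, fell by 2.91 ± 0.10 (-1.54 with probe sets averaged) and TK1, the thymidine kinase, by 3.51 ± 0.16. Of 24 tested DNA repair and checkpoint genes 22 fell (median -2.02), among them BLM, a helicase, which was at least 20.3-fold lower, and CHEK1, the checkpoint kinase, with -3.38 ± 0.14. BRCA1, of homologous recombination, fell by 3.11 ± 0.14. ATM, the kinase that answers double-strand breaks, went the other way, with 9.95 and 9.68 at 72 h and 8.65 to 9.56 at 0 h (0.82 ± 0.18, limma adjusted p = 0.0013).

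Genes of mitosis fell as well. All 34 tested mitotic kinase and checkpoint genes fell (median -3.50), as did all 20 tested kinetochore and centromere genes (median -3.29) and 33 of 34 tested genes of mitotic motors, condensin and cohesin (median -2.93). FOXM1, the transcription factor of late cell cycle genes, read 4.02 and 4.01 at 72 h, against 9.50, 9.47, 9.44 and 9.16 at 0 h (-5.38 ± 0.15, limma adjusted p = 1.2e-11). PLK1, a mitotic kinase, read 2.63 and 2.73 at 72 h and between 7.90 and 8.39 at 0 h, at least 18.9-fold lower. CDC20, which activates the anaphase-promoting complex, read 7.30 and 6.91 at 72 h, against 11.36, 11.30, 11.22 and 10.99 at 0 h (-4.11 ± 0.21). The 2 groups were separated by over 3 log2 units for each of these genes. HMMR, a spindle-associated protein, fell by 4.11 ± 0.24, SPC25, of the NDC80 complex, by 4.17 ± 0.19, and OIP5, which helps to place the centromeric histone, by 5.03 ± 0.15. PTTG1, the securin, fell by 3.11 ± 0.10, with 8.58 and 8.65 at 72 h and 11.66 to 11.82 at 0 h. NCAPH, of condensin I, fell by 4.78 ± 0.22 and KIF2C, a kinesin that depolymerises microtubules, by 4.02 ± 0.18.

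Promoter windows of all lists with at least 5 tested members, falling and rising, were searched for known cell cycle letters. Mainly falling lists are described here. Windows ran from 250 bases before to 50 after the start of each gene in RefSeq (GRCh38.p14) and were read on both strands for the cell cycle homology region (CHR, TTTGAA), for CCAAT, for 4 spellings of an E2F site (TTTCCCGC, TTTCGCGC, TTTGCCGC and TTTGGCGC) and for a pair of GGAA in tandem (GGAAGGAA). CCAAT can overlap its own reverse complement, as it does in HMMR. Of 34 tested mitotic kinase and checkpoint genes 23 had a window, and 15 of these (65.2%) held the CHR and 12 (52.2%) held the CHR and CCAAT together, as did 15.6% and 6.15% of all 27305 windows, and 10.3% and 4.54% of the 6129 windows of genes tested. Of the 32 matched motor, condensin and cohesin genes, 21 (65.6%) held the CHR. The E2F spellings were found in 17 of 45 replication genes with a window (37.8%), against 3.27% of all windows and 5.71% of those of genes tested, and in 0 of the 23 mitotic kinase and checkpoint genes. The tandem GGAA lay in 1 of 14 EWS-FLI1-activated genes with a window (7.14%), in 3.61% of all and in 3.43% of those of genes tested. Rising lists varied. The CHR lay in 23.5% of windows in both the matrix glycoprotein list and the chemokine list, and in 7.69% of the collagens. The tandem GGAA lay in 8.82%, 17.6% and 0% of these 3 lists. The E2F spellings lay in 0%, 5.88% and 7.69% of these 3 lists. The CHR and the tandem GGAA were thus not particular to the falling lists, although the CHR was more frequent in the mitotic lists. The E2F spellings were more frequent in the replication list (37.8%) than in these 3 rising lists. A match is a description of letters and not a bound site. The 5 windows below are shown from 150 bases before to 30 after the start, 5' to 3' on the strand of the gene, because they belong to mitotic and centromere genes described above and hold these letters in different arrangements. Capitals mark the CHR, CCAAT and E2F matches on either strand.
PLK1 (chr16:23678739-23678918, plus strand): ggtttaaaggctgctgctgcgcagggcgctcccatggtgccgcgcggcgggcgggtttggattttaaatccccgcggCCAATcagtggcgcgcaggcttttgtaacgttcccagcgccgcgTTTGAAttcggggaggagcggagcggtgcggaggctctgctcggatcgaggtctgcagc
CDC20 (chr1:43358831-43359010, plus strand): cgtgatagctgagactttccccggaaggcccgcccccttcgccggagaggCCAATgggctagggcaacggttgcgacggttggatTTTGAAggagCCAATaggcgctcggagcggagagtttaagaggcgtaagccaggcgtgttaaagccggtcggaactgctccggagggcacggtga
HMMR (chr5:163460482-163460661, plus strand): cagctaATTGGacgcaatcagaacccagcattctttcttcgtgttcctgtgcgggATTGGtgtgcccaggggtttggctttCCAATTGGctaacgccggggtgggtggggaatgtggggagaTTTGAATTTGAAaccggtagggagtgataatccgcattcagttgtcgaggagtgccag
SPC25 (chr2:168890401-168890580, minus strand): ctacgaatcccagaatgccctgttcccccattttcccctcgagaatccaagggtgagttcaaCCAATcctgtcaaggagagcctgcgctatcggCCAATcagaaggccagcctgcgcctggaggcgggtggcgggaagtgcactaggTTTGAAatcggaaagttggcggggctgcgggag
OIP5 (chr15:41332562-41332741, minus strand): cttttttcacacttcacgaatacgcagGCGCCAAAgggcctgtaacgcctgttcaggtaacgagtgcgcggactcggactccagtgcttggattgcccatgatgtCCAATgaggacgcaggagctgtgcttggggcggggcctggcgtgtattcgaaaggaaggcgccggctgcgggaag
PLK1 has 1 CHR whose letters begin at position -29 from the start, with 1 CCAAT upstream of it. HMMR has a pair of CHR side by side and 4 CCAAT matches in the window shown, and 1 of the 2 CHR matches of SPC25 begins at position -3. OIP5 has an E2F spelling at position -123 and CCAAT but no CHR match in its full window.

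Genes of chromatin silencing and the nuclear lamina moved unevenly. Of 16 tested genes of histone and DNA methylation 13 fell and 2 rose (median -1.53, and -0.77 without the filter on low values). SUV39H2, a histone H3 lysine methyltransferase, read 2.81 and 2.55 at 72 h and between 6.22 and 6.61 at 0 h, at least 5.40-fold lower, and its homologue SUV39H1 fell by 2.31 ± 0.12. ATAD2, a bromodomain protein, fell by 3.70 ± 0.13. Among 12 tested lamina and envelope genes 6 fell and 2 rose (median -0.36, and from -0.59 to -0.22 under the alternatives). LMNB1, the gene of lamin B1, read at most 7.01 on the arrays at 72 h, against 9.98, 9.85, 9.73 and 9.61 at 0 h (-2.78 ± 0.16, limma adjusted p = 4.4e-09), and LMNB2 fell by 2.03 ± 0.13. LMNA, the gene of lamins A and C, had 10.98 and 10.90 at 72 h and between 9.93 and 10.81 at 0 h, a rise of 0.72 ± 0.21 (limma adjusted p = 0.0072) that some alternatives did not keep. Of 12 tested linker and variant histone genes 6 fell and 1 rose, H2AX by -2.33 ± 0.12 and H2AZ1 by -1.11 ± 0.08.

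Smaller decreases were seen in most of the listed genes that make ribosomes, spliceosomes and folded proteins. Of 31 tested ribosome biogenesis genes 30 fell (median -1.23). NCL, the nucleolar protein nucleolin, read 11.60 and 11.59 at 72 h, against 12.82, 12.75, 12.79 and 12.79 at 0 h (-1.19 ± 0.07, limma adjusted p = 6.9e-09), and FBL, which methylates ribosomal RNA, fell by 0.90 ± 0.05. The groups did not overlap, although the changes were small. MYCN, placed in this list as a driver of ribosome synthesis, was the member that rose, with 5.47 and 4.55 at 72 h and 3.15 to 3.48 at 0 h. Of 45 tested splicing genes 35 fell (median -0.79), among them SNRPA, of the U1 particle, with -2.00 ± 0.09. All 18 tested chaperone genes fell (median -0.84), CCT7, a subunit of the CCT chaperonin, by 1.23 ± 0.08. Most are cytosolic, but HSPD1, a mitochondrial chaperone, is among them. Of 40 tested respiratory chain genes 31 fell (median -0.54). ATP5MC1, which encodes subunit c of ATP synthase, stood out among them with 7.70 and 7.64 at 72 h and 9.69 to 9.88 at 0 h (-2.12 ± 0.12).

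Genes of extracellular matrix rose. Of 27 collagen genes on the array 20 were tested, and 17 of these rose while 3 did not pass. The median was 2.26, and 1.58 without the filter on low values. COL1A2, a chain of type I collagen, read 13.07 and 12.86 at 72 h, against 7.66, 7.99, 7.84 and 8.11 at 0 h (5.06 ± 0.15, limma adjusted p = 1.7e-11). COL6A3, a chain of type VI collagen, read 12.58 and 12.60 at 72 h and 4.68, 3.96, 3.52 and 6.15 at 0 h (8.02 ± 0.54). Type VI collagen surrounds cells of connective tissue. Its chain COL6A2 rose by 3.32 ± 0.12, or by 2.00 when probe sets with names ending in _x_at or _s_at were left out. COL4A2, of basement membranes, rose by 2.15 ± 0.13. Of 58 matrix glycoprotein and proteoglycan genes on the array 42 were tested, and 40 of these rose (median 2.39). Only 29 of the 42 reached log2 4 on at least 2 arrays at 0 h, and 40 did so on both arrays at 72 h. VCAN, a large proteoglycan, read 10.35 and 10.24 at 72 h and between 2.43 and 2.51 at 0 h, at least 78.5-fold higher. LAMA4, a laminin chain, was at least 60.8-fold higher by its brightest probe set, and its log2 change was 2.71 with its 5 probe sets averaged. MATN2, a matrilin, was at least 7.56-fold higher. Enzymes that fold and crosslink collagen followed, with 11 of 12 tested rising (median 1.39). LOXL2, a lysyl oxidase, read 13.14 and 13.03 at 72 h, against 7.61, 8.55, 8.33 and 8.26 at 0 h (4.90 ± 0.27), while PCOLCE, which speeds the maturation of procollagen, rose by 2.44 ± 0.12.

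Secreted proteases, adhesion receptors and the contractile skeleton were mostly higher. Of 22 tested proteases and inhibitors 15 rose and 3 fell (median 1.62). MMP2, which degrades basement membrane collagen, read 11.65 and 11.58 at 72 h, against 7.73, 7.90, 7.76 and 8.10 at 0 h (3.74 ± 0.15). HTRA1, a serine protease, was at least 27.8-fold higher, and PLAT, the tissue plasminogen activator, rose by 5.33 ± 0.39. TFPI2, a Kunitz inhibitor of serine proteases, rose by 5.55 ± 0.43. ADAMTS1, a metalloprotease of proteoglycans, fell by 2.06 ± 0.39 and PAPPA, which cleaves an IGF-binding protein, by 1.62 ± 0.17. Of 25 tested integrin and adhesion genes 18 rose and 5 fell (median 1.30). The median was 0.89 without the filter on low values and 2.55 without _x_at and _s_at probe sets. ITGAV, the alpha-v integrin, read 12.92 and 13.03 at 72 h, against 9.55, 9.70, 9.74 and 10.15 at 0 h (3.20 ± 0.15), and ITGA4, the alpha-4 integrin, rose by 4.56 ± 0.25. L1CAM, a neural adhesion molecule, rose by 4.64 ± 0.26 (2.68 with probe sets averaged). The protocadherins PCDH8 and PCDH7 were lower, PCDH8 at least 6.32-fold. PCDH7 fell by 2.98 ± 0.16 by its brightest probe set, and 1 of its other probe sets had -0.01. Among 28 tested contractile and focal adhesion genes 22 rose (median 0.90). MYLK, the myosin light chain kinase, read 9.46 and 9.21 at 72 h and between 4.02 and 4.42 at 0 h (5.19 ± 0.29), SVIL, supervillin, rose by 2.86 ± 0.31, and TES, of focal adhesions, by 1.32 ± 0.10.

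Signalling genes that rose included receptors, ligands and their inhibitors. Of 27 tested receptor tyrosine kinase genes and feedback inhibitors 22 rose (median 0.97). PDGFRA, which binds platelet-derived growth factor, read 10.75 and 10.72 at 72 h, against 3.84, 3.24, 3.26 and 3.78 at 0 h by its brightest probe set (7.20 ± 0.37). Every 0 h value of that probe set was below log2 4, another probe set had a difference of 0.84, and the mean of its probe sets changed by 2.67. EGFR, the epidermal growth factor receptor, read 7.76 and 7.48 at 72 h and between 3.50 and 3.93 at 0 h. It was at least 12.3-fold higher by its brightest probe set. Its other probe sets stayed under log2 4 on every array, with differences from -0.06 to 0.39. SPRY2, a feedback inhibitor of these receptors, rose by 3.38 ± 0.17. In the insulin-like growth factor axis 8 of 11 tested genes rose (median 1.14, and 2.38 without _x_at and _s_at probe sets). IGFBP2, a binding protein, read 14.55 and 14.51 at 72 h, against 11.58 to 11.81 at 0 h (2.81 ± 0.12), and IGFBP6, another, rose by 3.28 ± 0.21. IGFBP7, a related secreted protein, read 13.28 and 13.12 at 72 h and 4.45, 4.58, 5.21 and 6.93 at 0 h (7.91 ± 0.50). IGF1, the growth factor itself, fell by 0.93 ± 0.38 (limma adjusted p = 0.042), a call that most alternatives did not keep. Its other probe sets had -0.45, -0.11 and -0.74. Of 28 tested TGF-beta and BMP genes 21 rose (median 1.22, and 1.00 without the filter on low values). LTBP3, which stores latent TGF-beta in the matrix, rose by 2.80 ± 0.22, ACVR1, a type I receptor, by 1.80 ± 0.15, and SMAD5, which carries BMP signals, by 1.97 ± 0.15. In the Wnt pathway 9 of 15 tested genes rose (median 1.20, and between 0.31 and 0.39 under 4 alternatives for probe sets and low values). FZD7, a Wnt receptor, read 11.22 and 11.18 at 72 h and between 7.30 and 7.75 at 0 h (3.66 ± 0.29), TCF7L2, a nuclear effector, rose by 1.50 ± 0.11, and SFRP1, a secreted inhibitor, was at least 2.97-fold higher. WWTR1, the gene of TAZ in the Hippo pathway, rose by 1.92 ± 0.09, with 13.38 on both arrays at 72 h and 11.39 to 11.56 at 0 h, and 11 of 20 tested YAP and SRF targets and cofactors rose (median 0.69). TEAD4, a partner of YAP, fell by 2.34 ± 0.41.

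Immune genes were higher, many of them from values near the bottom of the scale. Of 39 genes on the array in the chemokine, cytokine and complement list 20 were tested, and 18 of these rose (median 3.72). The list also holds enzymes, among them PTGS2, TDO2 and KMO, and its counts and medians include these. The filter matters here: 10 of the 20 reached log2 4 on at least 2 arrays at 0 h, 19 did so on both arrays at 72 h, and the median was 0.50 without the filter and 2.33 with low values set to log2 4. PTGS2, the inducible cyclooxygenase, read 11.23 and 11.49 at 72 h, against 4.80, 4.16, 3.76 and 3.88 at 0 h (7.21 ± 0.25, limma adjusted p = 5.2e-11). TDO2, which degrades tryptophan, rose by 7.96 ± 0.37, while KMO, a later enzyme of that pathway, was at least 2.78-fold lower. CFI, complement factor I, read 7.86 and 7.64 at 72 h and between 1.96 and 1.98 at 0 h, at least 13.5-fold higher, and LIF, a cytokine, was at least 5.45-fold higher. Of 35 tested interferon and MHC class I genes 24 rose and 3 fell (median 1.36). Of these 35, 27 reached log2 4 on at least 2 arrays at 0 h and 33 did so on both arrays at 72 h. The median was 0.98 without the filter, where 25 of 44 rose and 6 fell, and 1.00 with low values set to log2 4. IFITM2, an antiviral membrane protein, read 9.42 and 9.57 at 72 h, against 6.85, 6.52, 6.47 and 7.01 at 0 h (2.78 ± 0.22), and IFIT3, induced by interferon, was at least 5.75-fold higher. OAS1, a sensor of double-stranded RNA, was at least 3.04-fold higher. IFI44, also induced by interferon, fell by 2.00 ± 0.39 (-1.06 with probe sets averaged), and JAK1, a kinase of interferon receptors, by 0.68 ± 0.15 (limma adjusted p = 4.4e-04 and 9.8e-04). The list therefore did not move as 1 block.

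Lysosome genes rose nearly throughout: of 27 tested, 25 rose and 1 fell (median 1.29). CTSB, the protease cathepsin B, read 12.38 and 12.33 at 72 h, against 10.35, 10.26, 10.20 and 10.33 at 0 h (2.07 ± 0.08, limma adjusted p = 1.8e-10). MANBA, a mannosidase, rose by 4.15 ± 0.19, and CTSO, cathepsin O, was at least 10.8-fold higher. GLA, an alpha-galactosidase, was the member that fell, by 0.89 ± 0.21. Of 25 tested genes of the endoplasmic reticulum and secretion 12 rose (median 0.64). CREB3L2, a membrane-bound factor of secretory cells, read 10.61 and 10.41 at 72 h and between 8.42 and 8.68 at 0 h (1.93 ± 0.15). SEC24D, a coat protein of vesicles that carry procollagen, rose by 2.23 ± 0.24 (1.35 with probe sets averaged) and KDELR3, a retrieval receptor, by 3.59 ± 0.36.

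Genes of stress and metabolism had no common direction. Among 25 tested genes of the integrated stress response and amino acid supply 7 rose, 1 fell and 17 did not pass. The share that rose was close to the 29.3% of all genes tested. The median was 0.16, -0.11 without _x_at and _s_at probe sets, and -0.02 with array weights. GDF15, a stress cytokine, read 9.65 and 9.86 at 72 h, against 4.08, 2.39, 2.48 and 3.06 at 0 h (6.75 ± 0.67, and 3.36 with probe sets averaged). SLC38A2, an amino acid transporter, rose by 0.97 ± 0.08. Of 23 tested glycolysis genes 12 fell and 4 rose (median -0.27, and -0.16 with arrays centred). SLC2A3, a glucose transporter, read 8.89 and 8.65 at 72 h and between 6.18 and 6.59 at 0 h (2.41 ± 0.19), while LDHB, a lactate dehydrogenase subunit, fell by 0.59 ± 0.05. In cholesterol synthesis 6 of 20 tested genes fell and 1 rose (median -0.30), EBP, a sterol isomerase, by -1.79 ± 0.16. Of 16 tested aminoacyl-tRNA synthetases 5 fell and 2 rose (median -0.14, and 0.04 without _x_at and _s_at probe sets). In this list and in cholesterol synthesis the share that fell was under the 39.2% of all genes tested. Of 17 tested p53 targets 9 rose and 4 fell (median 0.74). PMAIP1, the cell death gene of NOXA, read 11.73 and 11.59 at 72 h, against 10.26, 10.02, 10.16 and 10.41 at 0 h (1.45 ± 0.11), and XPC, of nucleotide excision repair, rose by 1.37 ± 0.09. DDB2, of the same repair pathway, fell by 2.51 ± 0.17. A673 is known to lack functional p53. Of 17 tested BCL2 family and cell death genes 7 rose and 4 fell (median 0.23, and from 0.02 to 0.41 under the alternatives), BIRC2, an inhibitor of apoptosis, by 1.05 ± 0.09 and BID, a trigger of apoptosis, by -2.43 ± 0.18.

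Genes of differentiation did not all move 1 way. Of 19 tested bone, cartilage and mesenchymal genes 15 rose and 1 fell (median 1.53, and 0.63 without the filter on low values). SPP1, the bone matrix protein osteopontin, read 9.11 and 8.93 at 72 h and between 2.63 and 2.66 at 0 h, at least 32.4-fold higher. CEBPD, a transcription factor, rose by 4.62 ± 0.20, or by 1.66 by the probe set left when _x_at and _s_at probe sets were omitted. Of 20 tested neural genes 9 fell and 3 rose (median -0.32, and -0.04 without the filter on low values). DLG2, a scaffold of synapses, read 4.45 and 4.16 at 72 h, against 9.07, 8.55, 8.50 and 8.57 at 0 h (-4.37 ± 0.24), and CNTNAP2, an axonal adhesion protein, fell by 4.08 ± 0.31. GAP43, of growing axons, went up by 4.04 ± 0.16, and RTN1, a reticulon, by 4.22 ± 0.63, with 11.09 and 11.17 at 72 h and 6.70, 6.28, 6.19 and 8.48 at 0 h.

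Most markers of other cell types were under log2 4, with a few bright exceptions. All 8 blood cell markers on the array, PTPRC, CD3E, CD3D, CD79A, CD14, HBB, LYZ and SPI1, were under log2 4 on all arrays at 72 h and 0 h, and their summed linear level was 37.8 to 38.0 at 72 h and 39.0 to 42.0 at 0 h. Of 8 endothelial markers, KDR and EMCN were above that level at 72 h. KDR, a receptor for vascular growth factor, read 7.51 and 7.24 at 72 h and between 3.44 and 3.84 at 0 h. EMCN was brighter, with 11.66 and 11.59 at 72 h and between 8.85 and 9.90 at 0 h. PECAM1, CDH5, VWF, TEK, TIE1 and ERG were under log2 4 on each of these 6 arrays, while the summed level of the list was 3256 to 3451 at 72 h and 507 to 998 at 0 h. Of 10 epithelial markers only KRT18, a keratin, was above log2 4, and of 10 skeletal muscle markers only TNNT1, a troponin, which fell by 1.56 ± 0.33. MYOD1, MYOG and DES were under log2 4 on all 6 arrays. The summed level of the epithelial list was 1062 to 1102 at 72 h and 458 to 875 at 0 h, and that of the muscle list was 221 to 243 at 72 h and 486 to 794 at 0 h. The part of other cell types in the results was not tested.

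The next comparison asks what still changed between 53 h and 72 h. At 72 h 1215 genes differed from 53 h (n = 2 arrays each), 16.6% of those tested, 410 of them higher (5.61%) and 805 lower (11%). With arrays centred on their medians 513 were higher and 528 lower. Leaving out replicate 1 at 53 h left 468 genes, and leaving out replicate 1 or 2 at 72 h left 578 or 621. With both arrays at 72 h averaged and counted as 1 sample, 220 passed. CFI read 7.86 and 7.64 at 72 h, against 2.04 and 1.96 at 53 h, and was at least 13.5-fold higher (limma adjusted p = 3.4e-10). IGFBP3 rose by 5.23 ± 0.24, PRL, the gene of prolactin, by 4.83 ± 0.50 and A2M by 4.69 ± 0.50. PTPRE, a tyrosine phosphatase, was at least 20.1-fold higher than at 53 h. In the chemokine, cytokine and complement list 11 of 20 tested genes rose over 53 h and 1 fell, with a median of 1.53 against -0.07 for all genes. A gene could enter this list through its 72 h arrays alone, which favours a rise, so these values are a description.

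Other genes were lower at 72 h than at 53 h, and 4 of them had all 0 h arrays under log2 4 as well. SLAMF1, a receptor of lymphocytes, read 3.12 and 3.11 at 72 h, against 7.47 and 7.15 at 53 h, at least 9.92-fold lower (limma adjusted p = 5.8e-07). INHBE, an inhibin subunit, SOSTDC1, a secreted BMP and Wnt antagonist, and B3GALT2, a galactosyltransferase, were at least 11.3-fold, 10.2-fold and 5.73-fold lower, although INHBE lost its call under 11 of 17 alternatives, each left-out array at 53 h or 72 h among them, and SOSTDC1 under 1. The change of B3GALT2 was -1.40 without _x_at and _s_at probe sets. SLC15A2, a peptide transporter that read 6.53 to 7.82 at 0 h, fell by 3.54 ± 0.50 at 72 h against 53 h, a change of -2.02 with its probe sets averaged. Mitotic genes were still going down: 14 of 34 tested mitotic kinase and checkpoint genes were lower at 72 h than at 53 h (median -0.50), and FOXM1 fell by 1.80 ± 0.17, to 4.02 and 4.01 at 72 h, against 5.68 and 5.93 at 53 h. Replication genes mostly did not pass, with 5 of 53 tested lower (median -0.10), and PRIM1 was 1 of the 5, with -2.01 ± 0.18. Of 40 tested respiratory chain genes 12 were lower (median -0.21). FLI1 itself had a change of 0.20 from 53 h that did not pass (limma adjusted p = 0.53).

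**Figure D3:**
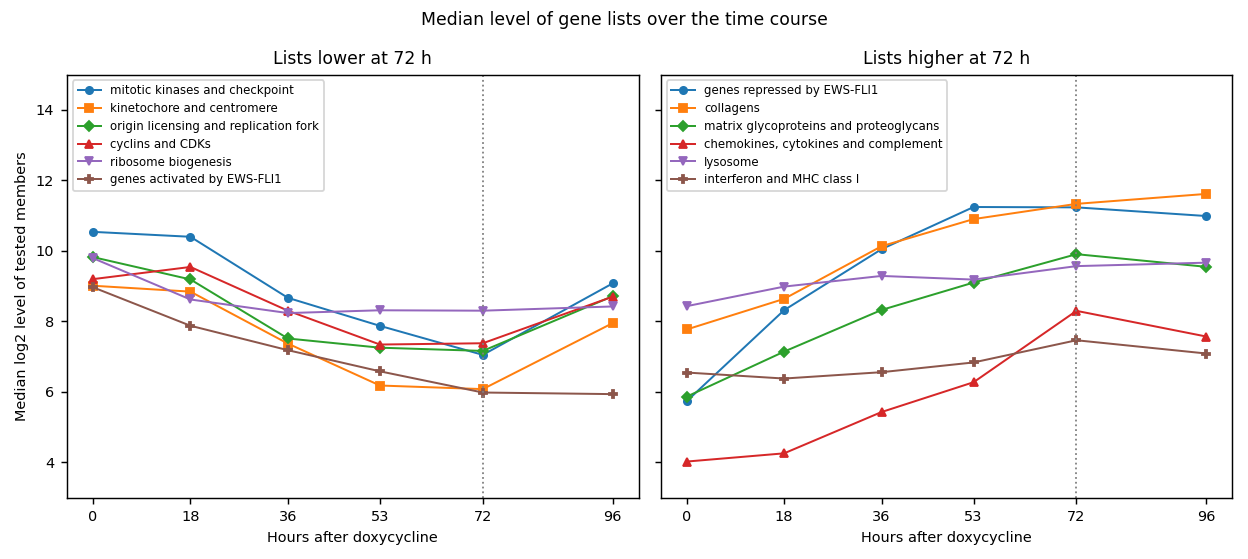
Median log2 level of the tested members of 6 lists that were lower (left) and 6 that were higher (right) at 72 h, at each of the 6 times after doxycycline, each point being the median over genes of the mean of the arrays at that time; the dotted line marks 72 h. Mitotic kinase and checkpoint genes had medians of 10.54, 10.40, 8.67, 7.87, 7.05 and 9.08 from 0 h to 96 h, with the low point at 72 h. The chemokine, cytokine and complement list had its highest median, 8.30, at 72 h. Its members could be admitted by their 72 h arrays alone: 19 of 20 reached log2 4 on both of these, and 10 on at least 2 arrays at 0 h.

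A further comparison asks whether 72 h was the end point of these changes. At 96 h 1988 genes differed from 72 h (n = 2 arrays each), 27.2% of those tested, 1250 of them higher (17.1%) and 738 lower (10.1%). With arrays centred 1042 were higher and 971 lower. Leaving out replicate 1 or 2 at 72 h left 1234 or 1276 genes, leaving out replicate 1 at 96 h left 1273, and 731 passed with both arrays at 72 h averaged and counted as 1 sample. Cell cycle genes were higher at 96 h: 31 of 34 tested mitotic kinase and checkpoint genes (median 2.17), 48 of 53 replication genes (median 1.85) and 12 of 17 cyclins and CDKs (median 1.68). FOXM1 read 7.78 on both arrays at 96 h, against 4.02 and 4.01 at 72 h (3.77 ± 0.17, limma adjusted p = 3.4e-08). CDC45 was at least 9.62-fold higher at 96 h, and HJURP, the chaperone of the centromeric histone, rose by 3.45 ± 0.37. Both comparisons use the same 2 arrays at 72 h, which therefore enter the fall and the return alike. Of 20 tested EWS-FLI1-activated genes 17 did not pass at 96 h against 72 h (median -0.14), and FLI1 had a change of -0.27 (limma adjusted p = 0.32).

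Some genes were high at 72 h and lower at 96 h. GDF15 read 3.83 and 4.68 at 96 h, against 9.65 and 9.86 at 72 h, a change of -5.50 ± 0.78 that was -2.75 with its probe sets averaged. CCL20, a chemokine, read 2.22 and 2.19 at 96 h, against 5.21 and 7.13 at 72 h, where its 2 arrays were far apart, and was at least 4.50-fold lower. PLXNC1, a semaphorin receptor, fell by 3.52 ± 0.24 and GAS2, a protein of arrested cells, by 3.53 ± 0.57. NDNF, a secreted neurotrophic protein, fell by 3.88 ± 0.68, a change of -2.42 without replicate 1 at 96 h. Of the 20 tested genes in the chemokine, cytokine and complement list 10 were lower at 96 h and 1 was higher (median -0.90). Entry into this list through the 72 h arrays alone favours a fall here, so these values are a description too. COL15A1, a basement membrane collagen, read 6.39 and 6.15 at 96 h, against 2.27 and 2.38 at 72 h and 2.24 to 2.26 at 0 h, and was at least 4.82-fold higher at 96 h than at 72 h. ACTG2, a smooth muscle actin, rose by 3.46 ± 0.32 at 96 h and did not pass at 72 h against 0 h (-0.09). Matrix genes were mixed, with 1 of 42 tested glycoprotein and proteoglycan genes higher and 11 lower at 96 h (median -0.21), and 4 of 20 collagens higher and 2 lower.

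**Figure D4:**
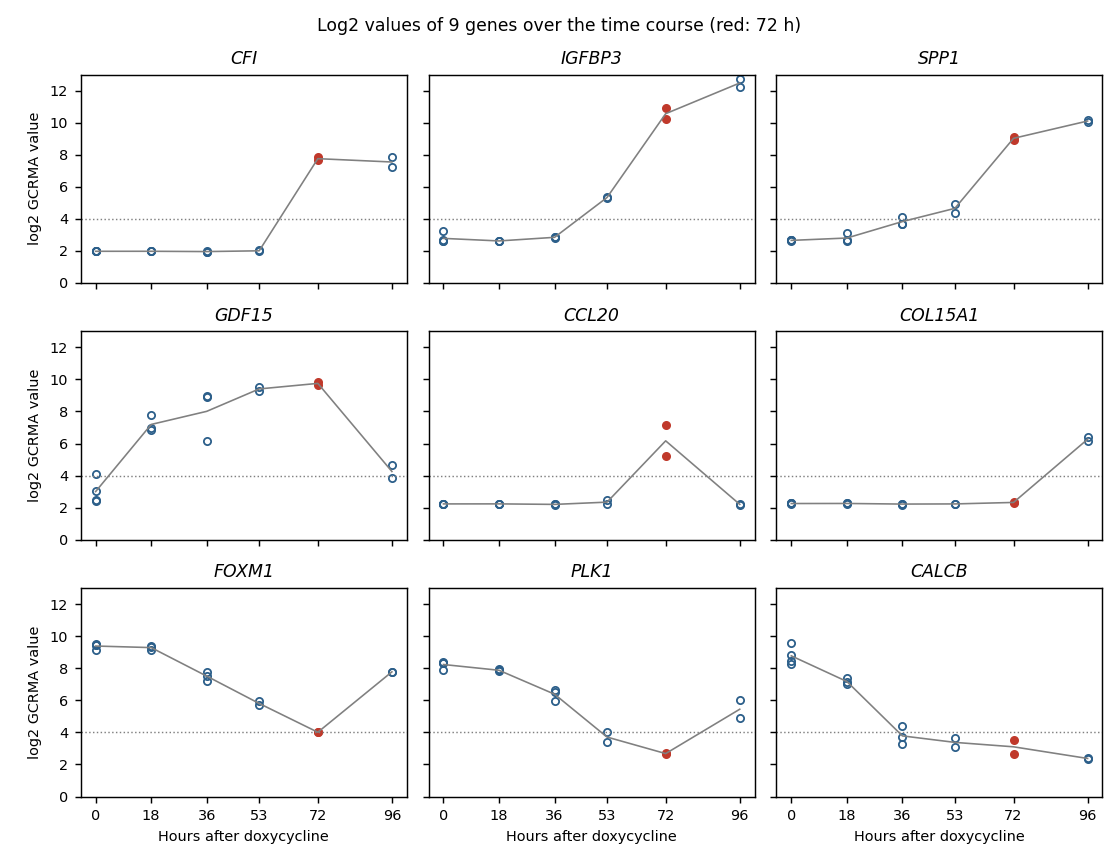
Log2 values of 9 genes on every array against hours after doxycycline, with filled red points for 72 h, open blue points for the other times, lines through the group means and a dotted line at log2 4. CFI, IGFBP3 and SPP1 reach high values at 72 h and keep them at 96 h, GDF15 and CCL20 are high at 72 h and low at 96 h, COL15A1 is low until 96 h, FOXM1 and PLK1 have their lowest values at 72 h, and CALCB stays low from 36 h on.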

How the data were processed

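RNA of A673 Asp14 cells was measured on 16 Affymetrix arrays. Each probe set has a log2 value that the authors deposited; GCRMA is the method named per the submitters' processing notes. Its version and settings, and the annotation build, are not stated there. GCRMA corrects background by probe sequence and presses dim probe sets into a narrow band, so a fold is given as a bound where all probe sets of the gene are dim in 1 group. Symbols came from the platform annotation, and 19070 of 22277 probe sets had 1 symbol, 1043 had several and 2164 had none. The brightest probe set by mean stood for each of 11963 genes, and 7304 genes that reached log2 4 on at least 2 arrays were tested. One mean per time was fitted over all 16 arrays with limma 3.58.1 in R 4.3.3 (eBayes with trend, 10 residual degrees of freedom, Benjamini-Hochberg adjustment over all genes tested, threshold 0.05). The fit was tested on simulated data. Gene lists and members were chosen with earlier results of these data known. Named genes were FLI1, EWSR1, the largest changes that did not overlap, the smallest adjusted p in each list and members that went against their list. The 46 lists held 1281 genes, of which 1131 were on the array and 946 were tested, and a gene could pass through its 72 h arrays alone. Groups were taken from the labels. Alternatives covered probe set choice, low values, scaling, the fit, a replicate block and left-out arrays.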

Additional observations from a re-analysis of the deposited data

Results flagged for a closer look

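In 23 of the 209 named genes 1 of the 4 arrays at 0 h lay apart from the others by Dixon's criterion on the gap over the range, which is 11% of those examined. Chance alone marks about 1 in 20 such groups if the 4 values are independent and normal. Replicates 2 and 3 at 0 h were closer than any other pair at 0 h, and the genes share arrays. The 11% therefore cannot be read as an excess over that rate. Some gaps were small and lay under log2 4, as in A2M (2.33 against 2.24 to 2.25). At 0 h replicate 1 was the highest array for CDKN3 (10.65), SVIL (8.06), DLG2 (9.07), HSPD1 (14.2) and GAS2 (5.23), with its log2 value in brackets. At 0 h replicate 3 was the highest array for H2AZ1 (14.08) and SMAD5 (7.41). At 0 h replicate 4 was the highest array for MGP (2.29), DKK1 (2.04), PAMR1 (3.15), A2M (2.33), IGFBP3 (3.22) and FARSA (9.55). At 0 h replicate 1 was the lowest array for TRIP13 (10.76) and UPP1 (5.16). At 0 h replicate 2 was the lowest array for PLD2 (5.78), CDK6 (4.56) and COL15A1 (2.24). At 0 h replicate 4 was the lowest array for PLK1 (7.9), SPC25 (10.16), PMVK (7.12), BIRC2 (10.43) and SLAMF1 (1.78). For MGP the other 3 arrays read 2.05 to 2.08, and for BIRC2 they all read 10.5. SLAMF1 had 2.6 to 2.76 on the others, and GAS2 had 3.76 to 3.89. No cause was tested.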

How the results depend on the processing

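The 5003 genes called at 72 h against 0 h stayed within 1.5 times of that count under all alternatives run except the omission of probe sets whose names end in _x_at or _s_at. That omission gave 3020 of 4431 genes tested, a share close to the main 68.5%. It gave 720 for 72 h over 53 h and 1124 for 96 h over 72 h. Counts are not shares where the number tested differs. Without the filter on low values 6575 of 11963 genes passed, a smaller share than 68.5%, with 2237 higher and 4338 lower. Leaving out single arrays gave 4334 to 4962 genes at 72 h against 0 h, 468 to 1007 for 72 h over 53 h, and 1234 to 1857 for 96 h over 72 h. Of 41 lists with at least 5 tested members, 33 had over 50% of them called in 1 direction at 72 h against 0 h, and 30 to 34 did so with single arrays left out. Counting close arrays once was chosen after seeing the data, and with both arrays at 72 h averaged as well it gave 220 genes for 72 h over 53 h, and 731 for 96 h over 72 h. List medians changed sign for the integrated stress response (-0.110 without those probe sets, -0.021 with array weights), and, without those probe sets, for aminoacyl-tRNA synthetases (0.0426) and cholesterol synthesis (0.0599); the cause was not tested. Of 209 named genes 20 lost their call at 72 h against 0 h under at least 1 alternative, as did 2 of 10 at 72 h against 53 h. A replicate block gave other counts: 4940, 1391 and 2177 genes passed in the 3 comparisons and 35 lists kept to that rule. Deviations of same-numbered arrays at 72 h and 0 h correlated at 0.033 and -0.037, which says little because the deviations of 2 arrays mirror each other. Replicates 2 and 3 lay closer to each other than to replicate 1 at 0 h, 18 h and 36 h, and the labels do not say what a number marks, so the arrays were not treated as paired. With 2 arrays at 72 h, small changes are measured with little precision, and genes dim in both groups were not tested.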

Other observations

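Several named genes outside the groups above, or set against their own group, had large changes at 72 h. NEIL3, a DNA glycosylase, read 3.04 and 3.07 at 72 h, against 7.75, 8.15, 8.02 and 7.46 at 0 h, which is at least 14.4-fold lower at 72 h. TACC3, a spindle protein, read 6.04 on both arrays at 72 h and between 9.70 and 10.27 at 0 h (-4.02 ± 0.18, SE, limma adjusted p = 5.9e-10). IER3, an immediate early gene, read 13.90 and 13.78 at 72 h and between 9.65 and 10.18 at 0 h (3.82 ± 0.23). VLDLR, a lipoprotein receptor counted with the stress response list, was at least 7.6-fold higher, with 6.91 and 6.94 at 72 h and 2.25 to 3.38 at 0 h. BNIP3L, a mitophagy receptor, rose by 1.87 ± 0.17, while AEN, a nuclease counted with the p53 targets, fell by 2.32 ± 0.33.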
